A study of Mus musculus with 10 samples.

Results

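Cd24a encodes CD24, a small and heavily glycosylated protein held in the outer cell membrane by a glycosylphosphatidylinositol (GPI) anchor, also known in the mouse as heat-stable antigen. In fat tissue CD24 is one of the surface markers used to sort adipocyte progenitors. Stromal cells that lack blood and endothelial markers and carry CD29 (Itgb1), CD34, Sca-1 (Ly6a) and CD24 can form fat tissue after transplantation, and they lose CD24 as they commit to the preadipocyte state. Cd24a (Entrez gene 12484) was represented by 1 probe set (10362896) of 34760 in the table, and by 1 of 19937 genes with a probe set of their own. No probe set shared between Cd24a and another gene was listed. The mouse genome holds intronless sequences related to Cd24a, and whether the probes also pair with their transcripts was not tested.

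The gene was chosen because its signal varied strongly between clonal lines of 3T3-L1, a mouse embryonic fibroblast line that turns into adipocytes under insulin, dexamethasone and IBMX. All lines were single-colony clones of that line, proliferating below confluence in serum medium and untreated when RNA was taken. In a separate test with the cocktail, 5 of them had stored little triglyceride (Low lines) and 5 had stored much (High lines). Clone 1E7 is called Low line 1 here, 2D7 Low line 2, 2F1 Low line 3, 4D11 Low line 4 and 4H4 Low line 5. Likewise 3F4 is High line 1, 4D2 High line 2, 4E3 High line 3, 5C4 High line 4 and 5D4 High line 5. Every line is a single clone measured on 1 array, so the spread within a class holds differences between clones and technical error together. Nothing in the labels marks a batch. Values are log2 intensities after RMA, a method that corrects background, brings the arrays to a common distribution and summarises the probes of a probe set. The arrays had medians of 7.74 to 7.84 and mean correlations with the other arrays of 0.987 to 0.993. High line 4 had both the highest median and the lowest mean correlation.

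The Cd24a signal ran from near the lower end of the measured genes to among the brighter ones. In Low lines it was 6.62 in line 1, 10.97 in line 2, 9.48 in line 3, 11.14 in line 4 and 8.66 in line 5. In High lines it was 10.26 in line 1, 9.53 in line 2, 10.45 in line 3, 8.50 in line 4 and 10.03 in line 5. The lowest and the highest signals of the series both belonged to Low lines, 4.52 log2 units or 22.9-fold apart, and every High line lay between them. This is the fold of the measured signals, and the lowest lay close to the dim end of its array. Low line 1 lay 1.88 below the next line, High line 4, which was the widest step in the order. It was close to the 25th percentile of its own array at 6.43, and only 4.94% of tested genes were dimmer there. In Low line 4, at the other end, 80.2% of tested genes were dimmer than Cd24a. Other neighbours in the order were close: Low line 3 and High line 2 differed by 0.05, and Low lines 2 and 4 by 0.16. With 1 array per line, such small steps cannot be told from technical error. An array of bulk RNA also cannot tell fewer CD24-bearing cells in a culture from less Cd24a RNA per cell.

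**Figure D1:**
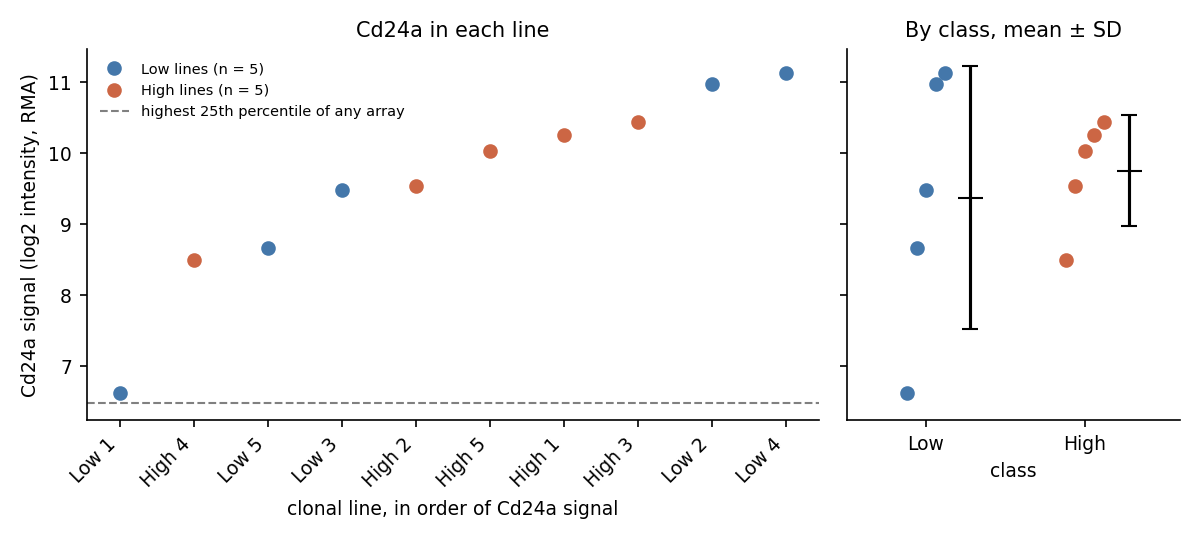
Cd24a signal (log2 intensity) in each clonal line, ordered by signal on the left and grouped by class on the right, where bars show the mean ± SD (n = 5 per class). The dashed line is the highest 25th percentile of any array. Low lines span 6.62 to 11.14 and enclose all 5 High lines, which lie between 8.50 and 10.45.

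The spread, which is the property the gene was chosen for and so carries no test, was uneven between the classes. The SD was 1.86 among the Low lines and 0.78 among the High lines (n = 5 each). Without Low line 1 the SD of the remaining 4 Low lines was 1.20 and their range 2.48, against a range of 1.95 among the High lines. Pooled over both classes the SD was 1.42, the sixth highest of 16339 genes tested. The median gene had 0.14, and the 2373 genes whose mean signal lay within 0.5 of that of Cd24a had a median of 0.16 with none above Cd24a. Just above Cd24a in this order, among named protein-coding genes, was Ppef1, a protein phosphatase gene, at 1.62, and just below it Pde3b, which encodes a phosphodiesterase that breaks down cAMP, at 1.42.

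**Figure D2:**
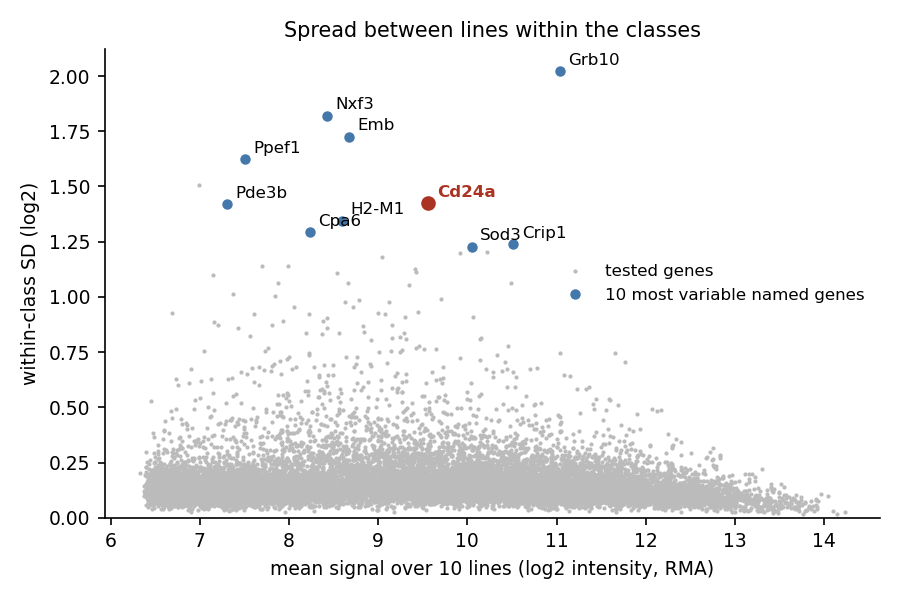
Within-class SD of each tested gene (log2) against its mean signal over the 10 lines (log2 intensity). Named points are the 10 protein-coding genes with the highest SD. Cd24a, at 1.42, lies above every gene of similar mean signal.

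The class means of Cd24a did not differ beyond this spread. Low lines averaged 9.37 ± 1.86 and High lines 9.75 ± 0.78 (mean ± SD, n = 5 each). High lines were higher by 0.38 (limma moderated SE 0.74, 95% confidence interval -1.23 to 1.99). Moderation pulls the SE toward that of typical genes. Cd24a was chosen for a wide spread, so the interval is likely too narrow for it. With an intensity trend and a robust prior in limma the SE was 0.86. The limma p adjusted across the tested genes was 0.897, and the two-sided exact permutation p was 0.714, where 0.00794 is the smallest this design allows. On the linear scale the interval runs from 0.427-fold to 3.96-fold, so these lines remain compatible with a difference anywhere within that interval. The direction rested on Low line 1: without it High lines were lower by 0.31 (limma adjusted p = 0.947). Over the whole array 1 gene of 16339 passed an adjusted p under 0.05, or 0.00612%, and 1299 genes (7.95%) had an unadjusted p under 0.05. Of these, 517 (3.16%) were higher and 782 (4.79%) lower in High lines, and with each array centred on its median 298 were higher and 1188 lower. The classes overlapped for Cd24a, with 4 Low lines above the lowest High line, as they did for all but 1.57% of tested genes.

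The other surface proteins used with CD24 to define adipocyte progenitors had narrower ranges than Cd24a. So had 99.97% of tested genes, since Cd24a was chosen for its spread, and nothing is read from this. The median range was 0.53 over the progenitor and stromal markers tested below and 0.45 over all tested genes. Itgb1, the integrin subunit CD29, lay between 12.47 and 12.88 in all 10 lines. Cd34, a sialomucin of progenitor cells, lay between 6.41 and 7.40, near the low end of the arrays. Ly6a, which encodes Sca-1, had no probe set of its own here and was not analysed. The lines dimmest and brightest for Cd24a, Low lines 1 and 4, measured 12.54 and 12.88 for Itgb1 and 6.72 and 6.83 for Cd34. Pdgfra, the receptor that marks adipogenic stromal cells, had its lowest signal, 10.68, in Low line 4, where Cd24a was highest. Its values elsewhere were 11.24 to 11.86. Dlk1, the preadipocyte factor that restrains differentiation, was among the brightest signals at 13.76 to 13.94, and the fibroblast surface protein gene Thy1 measured 11.88 to 12.83. Over the 33 tested genes of 41 listed progenitor and stromal markers, 21 were higher and 12 lower in High lines, with a median difference of 0.04 beside 0.02 over all tested genes (9475 higher, and 7463 after centring), and 0 passed the threshold (3 had an unadjusted p under 0.05). None of the 33 reached a correlation of 0.8 with Cd24a in either direction. The members of widest range were the adhesion molecule genes Alcam (1.92) and Mcam (1.88) and the transcription factor gene Ebf2 (1.52).

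**Figure D3:**
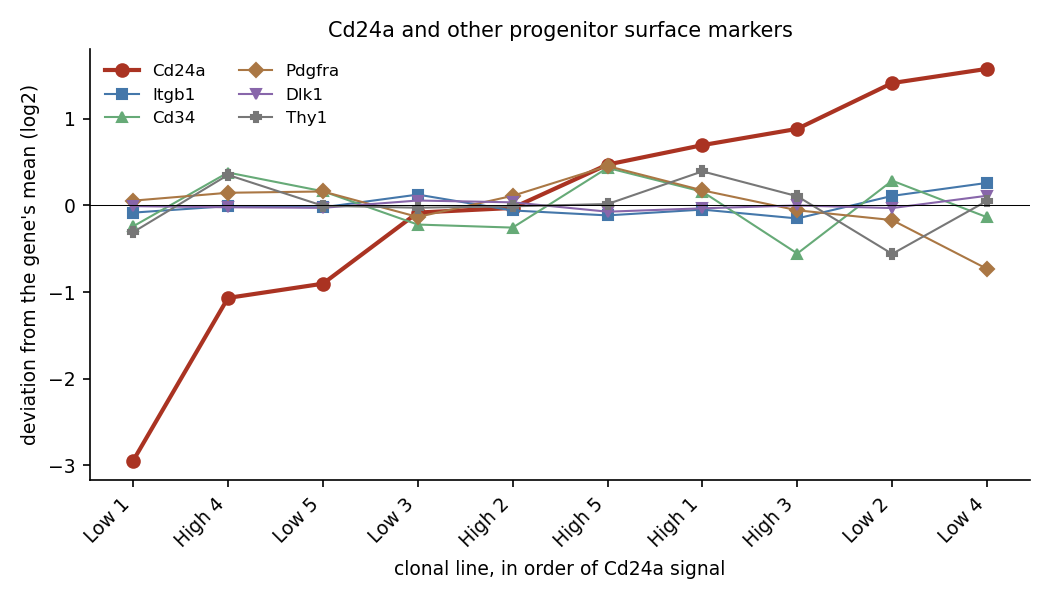
Deviation of each marker from its own mean over the 10 lines (log2), with lines in order of Cd24a signal. Cd24a climbs across 4.52 log2 units from Low line 1 to Low line 4, while Itgb1, Cd34, Dlk1, Thy1 and Pdgfra each stay within 1.19.

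A panel of 16 genes, with 15 of them tested, asked whether the Cd24a signal moved with adipogenic regulators or with genes that differ between clones. None of the 15 correlations over the 10 lines passed, by Pearson's r or by Spearman's rho. The Pearson adjusted p was 0.895 for all 15 and 0 had an unadjusted p under 0.05 (two-sided permutation tests, 100000 resamples). For Pparg, the nuclear receptor that drives fat cell formation, r was -0.08 (permutation p = 0.835) and rho -0.14 (permutation p = 0.707). For Fabp4, an intracellular carrier of fatty acids, r was -0.13 and rho -0.25. For the secreted factor gene Vstm2a, r was 0.13 and rho -0.02. The values furthest from 0 were those of Ppef1 (r = -0.45, rho = -0.24), Pdgfra (r = -0.41, rho = -0.42) and Itgb1 (r = 0.39, rho = 0.19). Without Low lines 1 and 4, the lines furthest from the median of Cd24a, r was -0.16 for Ppef1, -0.30 for Pdgfra and -0.03 for Itgb1. With 1 line left out at a time, r ran from -0.62 to -0.25 for Ppef1, from -0.56 to -0.14 for Pdgfra and from 0.16 to 0.55 for Itgb1. With the class means removed, r was 0.64 for Itgb1, -0.59 for Pdgfra, -0.46 for Cebpb, -0.42 for Pparg and -0.37 for Fabp4, and 0 of the 15 passed (lowest permutation adjusted p = 0.546). The imprinted genes Mest (r = 0.11) and Grb10 (r = -0.26), were each dim in some lines and bright in others. Grb10 was lowest in Low line 2 at 6.75, where Cd24a was 10.97. Mest was near the low end of the arrays in every Low line, at 6.56 to 6.90, and in High line 5, at 6.62. In the other High lines it measured 9.39 to 10.93. The remaining panel genes were the early adipogenic factors Cebpb (r = -0.29) and Cebpd (r = 0.25), Angptl4 (r = 0.06), which encodes an inhibitor of lipoprotein lipase, Cd34 (r = 0.05), Dlk1 (r = 0.22), Thy1 (r = 0.06) and the proliferation marker Mki67 (r = 0.09). With 10 lines, only strong relations could pass this test.

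Genes whose signal followed that of Cd24a were few. Of the other 16338 genes tested, 24 (0.147%) had an r of at least 0.8 with Cd24a and 32 (0.196%) an r of at most -0.8. These are descriptions over 10 lines with 1 array each, with no test. Cd24a thus had 56 genes past either limit. Among the 958 tested genes with a range of at least 1 log2 unit the median was 162, and 10.2% had fewer than Cd24a. Grb10, the most variable named gene, had 162 genes past the positive limit and 118 past the negative one. H2-M1, a class I-like gene of similar spread to Cd24a, had 13 and 16. Most of the 56 changed little in size: 53 had a range under 1 log2 unit, and their median slope was 0.08 log2 units for each log2 unit of Cd24a. None of the 56 had an unadjusted p under 0.05 between High and Low lines, beside 7.95% of all tested genes, and nothing is read from this count, since the 56 were chosen for following a gene whose own difference did not pass. Without Low line 1, 14 of the 56 stayed past the limits.

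Among 892 named protein-coding genes with a range of at least 1 log2 unit, 2 reached an r of 0.8 and 1 an r of -0.8. Emx2, a homeobox gene of urogenital and forebrain development, was the most alike (r = 0.87, rho = 0.75). In Low lines 1 to 5 its signal was 6.75, 8.63, 7.95, 8.30 and 8.23. In High lines 1 to 5 it was 8.40, 8.07, 8.43, 8.10 and 8.46. Low line 1 was the lowest for both genes, and without it r for Emx2 was 0.66. Col4a2, a chain of basement membrane collagen IV, followed (r = 0.86, rho = 0.70). It measured 9.70 in Low line 1 and 10.21 to 10.73 in the others, and without Low line 1 its r was 0.64. Col4a1, the partner chain transcribed from the same locus, had an r of 0.85 with a range of 0.85, under the limit on range. Its r without Low line 1 was also 0.64. Prkg1, a cGMP-dependent protein kinase gene, reached 0.78, Klf4, a transcription factor gene, 0.77, and the pseudokinase gene Trib3 0.75. Klf4 and Trib3 measured 9.54 and 8.43 in Low line 1, and without that line their r was 0.37 and 0.19. The methionine sulfoxide reductase gene Msrb2 reached 0.75. Prg4, which encodes lubricin, and Grb14, an insulin receptor adaptor related to Grb10, reached 0.74, and Sytl2 and Cfap20dc 0.72. Without Low line 1 the r of Sytl2 was 0.34. Cfap20dc was the 1 gene of these 10 with an r of at least 0.8 without Low line 1 (0.84). It measured 7.22 there, above Low line 5 (6.87) and High line 4 (6.96).

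On the opposite side Ctsw, a cathepsin gene of lymphocytes, was the most unlike (r = -0.82, rho = -0.70). It was highest in Low lines 5 and 1, at 8.46 and 8.40, and lowest in Low lines 2 and 4, at 7.36 and 7.50. High lines lay between at 7.73 to 8.01, and without Low line 1 its r was -0.76. The envelope-derived fusion gene Syna had an r of -0.79 and the lysozyme gene Lyz1 one of -0.78. Without Low line 1 the r of Syna was -0.47. Lyz1 measured 8.51 in Low line 1 and 7.04 to 7.41 elsewhere, and its r was -0.24 without that line. The sterol synthesis gene Lss (r = -0.72) and Ebf2 (r = -0.70) had r of 0.03 and 0.18 without Low lines 1 and 4. Ebf2, known from adipose progenitors and brown fat, was 8.99 in Low line 1 and 7.48 to 8.17 elsewhere. The mechanosensitive channel gene Piezo2 had an r of -0.71, Plscr2 and the growth factor gene Fgf2 -0.69, the kinase gene Map3k5 -0.68 and the focal adhesion gene Parvb -0.67. Without Low line 1 these 5 had r of -0.48, -0.62, -0.51, -0.71 and -0.52.

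**Figure D4:**
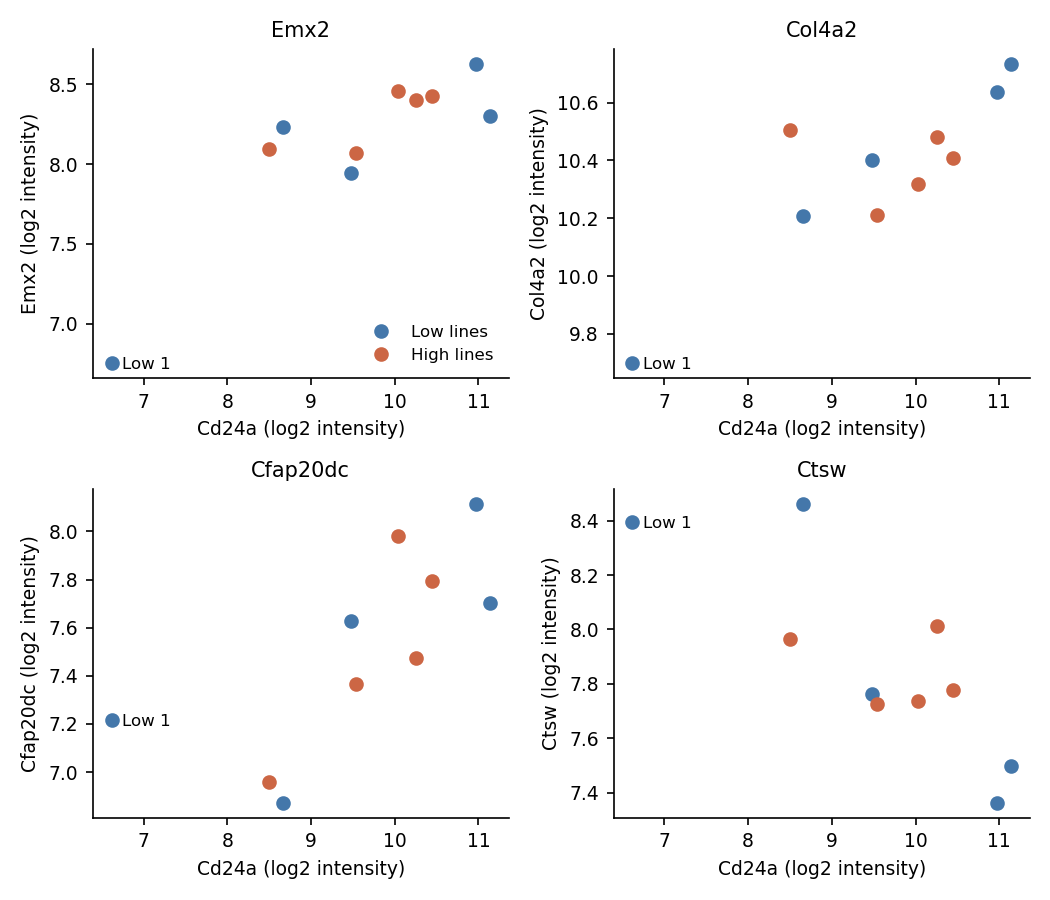
Signal of Emx2, Col4a2, Cfap20dc and Ctsw against Cd24a in the 10 lines (log2 intensity on both axes). Low line 1 lies alone at the lower left for Emx2 and Col4a2, while the r of Cfap20dc is 0.84 and that of Ctsw -0.76 without it.

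Without the limit on range, the closest genes, named after their values were seen, were Efcab8 (r = 0.96, range 0.44), Esyt1 (r = 0.94, range 0.82), which encodes a tether between the endoplasmic reticulum and the plasma membrane, and the aminoacylase gene Acy1 (r = 0.93, range 0.31). Their r without Low line 1 was 0.95, 0.87 and 0.93. Esyt1 measured 10.13 in Low line 1 and 10.95 in Low line 4, the same ends as Cd24a, across a much narrower range.

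Low line 1 stood far apart from the other lines for few genes. It was the lowest line by at least 1 log2 unit for 4 of the 16339 genes, Cd24a, Emx2, P3h2 and Cdsn, and the highest by that margin for 1. For Low line 2 the counts were 11 and 8. The mean correlation of Low line 1 with the other arrays was 0.9911. It was 0.987 in High line 4, the lowest, and 0.9913 to 0.9929 in the rest. A small shift shared by many genes was not tested.

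Genes beside Cd24a on chromosome 10 did not follow it closely over all 10 lines. The 10 nearest tested genes on each side had r with Cd24a between -0.54 and 0.55, with a median of 0.01, and 10 of the 20 were positive. Their median range was 0.47 and the widest, of the glutamate receptor gene Grik2, was 1.08. In other settings some came closer. Grik2 had an r of 0.55, and 0.81 with class means removed. Sec63 had an r of 0.44, and 0.85 without Low line 1, across a range of 0.23. Mtres1, a mitochondrial gene and the nearest tested one on one side, measured 10.50 in Low line 1 and 10.93 in Low line 4. F930017D23Rik, the nearest on the other side, measured 8.35 in both of those lines. The next genes outward, Bend3, Pdss2, which serves ubiquinone synthesis, Qrsl1 and Rtn4ip1, had ranges of 0.48, 0.67, 0.30 and 0.40. Centred on each gene's mean, the median of the 20 neighbours was 0.04 in Low line 1 and 0.05 in Low line 4, where Cd24a was lowest and highest. Over all 777 other tested genes of chromosome 10 the median r was 0.01, and Esyt1 was the 1 gene with an r of at least 0.8. None passed the threshold between the classes among the 20 neighbours, and Pdss2 and Grik2 had an unadjusted p under 0.05.

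**Figure D5:**
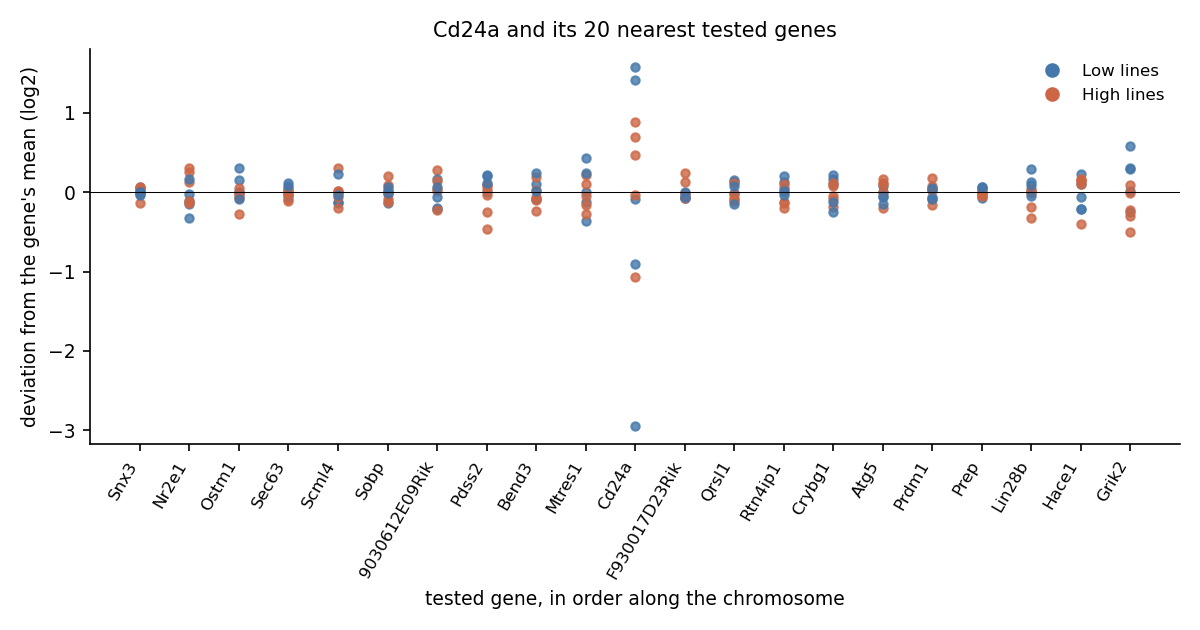
Deviation of each of the 10 lines from the gene's mean (log2) for Cd24a and its 20 nearest tested genes, in order along the chromosome. Cd24a spans 4.52 log2 units, while the neighbours span at most 1.08.

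Genes that serve CD24 at the cell surface, and other GPI-anchored proteins, were set beside all tested genes, whose median range was 0.45. It was 0.47 for ligands, partners and proximal kinases, 0.41 for GPI anchor synthesis and transfer, and 0.62 for other GPI-anchored proteins. Cd24a was chosen for its spread, so nothing is read from its wider range. Siglecg, the lectin receptor for CD24, lay between 9.50 and 10.58 with an r of 0.20. Of the 27 tested genes among 32 ligands, membrane partners and proximal kinases, 19 were higher and 8 lower in High lines (median 0.04), with 0 past the threshold and 0 at an unadjusted p under 0.05. After centring of the arrays 14 were higher. Itga3, an integrin subunit, had the widest range of them at 1.14. Of 28 tested genes of GPI anchor synthesis and transfer, 13 were higher and 15 lower (median -0.003), and after centring 11 were higher. None passed the threshold and 3 had an unadjusted p under 0.05, beside 7.95% of all tested genes. Pign, another gene of anchor synthesis, was higher by 0.21 (limma adjusted p = 0.483). Piga, which starts anchor synthesis, and Pgap1, which trims the anchor, had differences of -0.33 and -0.31 and limma adjusted p of 0.601 and 0.608. Their r with Cd24a was 0.11 and -0.13. Of 40 tested other GPI-anchored proteins, 26 were higher and 14 lower (median 0.03). None passed the threshold, and 2 had an unadjusted p under 0.05. After centring 20 were higher. The prion protein gene Prnp was the 1 member with an r of at least 0.8 (0.81), across a range of 0.35 from 11.89 in Low line 1 to 12.23 in Low lines 2 and 4. Without Low line 1 the r of Prnp was 0.60. Efna3 (range 1.55), Bst2 (1.41), Gpc6 (1.29), Gpc1 (1.22) and Msln (1.06) varied most among them, with r of 0.09, 0.25, 0.62, -0.15 and -0.49.

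The adipogenic list held the 1 gene past the threshold. Of 28 tested adipogenic factors and adipocyte genes, 23 were higher and 5 lower in High lines (median 0.11), and 8 had an unadjusted p under 0.05. Over all 16339 tested genes 9475 were higher (median 0.02), and 7.95% had such a p. After centring of the arrays 21 of the 28 were higher, beside 7463 of all tested genes. Much of this list was chosen with results of these lines known, so it is no independent evidence of direction. Angptl4 passed, with a difference of 0.88 (limma adjusted p = 0.00118). When clones were blocked by the first digit of their names it did not (0.72, limma adjusted p = 0.785). That block compares the classes only among clones 4D2, 4E3, 4D11 and 4H4, since no other first digit occurs in both classes. It leaves few arrays for the test. The median r of the 28 with Cd24a was -0.05. Of 21 tested cell cycle genes, 12 were higher and 9 lower, 0 passed the threshold, and after centring 7 were higher (median -0.02, from 0.02). Their median r with Cd24a was -0.18.

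Among markers of other cell types, several of which carry CD24, none reached an r of 0.8 or -0.8 with Cd24a. Of 17 tested epithelial markers 16 were higher in High lines (median 0.08), 0 passed the threshold, and after centring 13 were higher. Their median r with Cd24a was -0.06. The epithelial adhesion gene Epcam lay between 6.51 and 6.84. The summed linear signal of the epithelial list was 11.47 to 11.59 on the log2 scale in Low lines and 11.48 to 11.84 in High lines, and 11.53 in Low line 1. Of 11 tested neuronal markers, 8 were higher and 3 lower, with a median r of -0.00 and a summed signal of 10.89 to 11.57. Map2, a microtubule protein gene, ranged furthest at 2.92, with an r of -0.48. For B cell and leukocyte markers, 9 of 16 were tested, 8 were higher, and the summed signal was 11.004 to 11.33. For endothelial and erythroid markers 9 of 13 were tested, 8 were higher, and the sum was 10.51 to 10.68. None of these passed the threshold, and an unadjusted p under 0.05 was reached by 1 epithelial, 0 neuronal, 2 leukocyte and 1 endothelial or erythroid marker, beside 7.95% of all tested genes. Of all 16339 tested genes 9475 were higher in High lines, and 7463 after centring. After centring, 6 of 9 were higher in each of the last 2 lists. Fibroblast and preadipocyte markers, the labelled cell type, summed to 16.51 to 16.69 in all lines. Low line 1, where Cd24a was lowest, also had the lowest sum of the 10 lines for 6 of the 11 lists, among them the fibroblast list (16.51), the other GPI-anchored proteins (15.71) and the progenitor list (16.43). Their highest sums were 16.69, 15.98 and 16.56. A sum over many genes is no like measure to the range of a single gene chosen for its spread, so their sizes are not compared. Some genes, such as Thy1, stand in several of these lists, and the same count was not made for other lines. The part of these sums in the Cd24a level was not tested.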

How the data were processed

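The authors' deposited table gave log2 intensities per array and probe set, made with RMA per the submitters' processing notes. Its version, its settings and the array annotation: not given in the sources used here. RMA removes shifts shared by most genes. RNA came from 5 Low and 5 High lines, 1 array each. Probe sets were named through the platform annotation (21640 with 1 symbol, 1321 with several, 11799 unnamed), and 21553 of those with 1 symbol matched the RefSeq gene table, which also gave gene order. Cd24a matched 0 entries of the RefSeq promoter table. Coordinates are left out, since the build behind the array design is unstated. Where a gene had several probe sets (954 genes) the brightest was kept. Genes were tested when brighter than the 25th percentile of the array in 5 or more of the 10 arrays (16339 tested, 3598 set aside).

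The classes were compared by limma 3.58.1 (lmFit, eBayes) in R 4.3.3, two-sided, with Benjamini-Hochberg adjustment over all tested genes and a threshold of 0.05. The gene test was run on simulated data as a check. Correlations, permutation tests and plots used Python 3.11.15 with numpy 2.4.6, pandas 2.3.3, scipy 1.17.1 and matplotlib 3.10.9. Alternatives covered the filter, probe set choice, scaling, variance model, array weights, a block on the first digit of clone names, and each line left out in turn. Cd24a, the lists and the tests were chosen with earlier results of these data known. Named were Cd24a, the panel, the 10 genes most and least alike with a range of at least 1 log2 unit (predicted and non-coding genes skipped), the 6 nearest neighbours, and from each list up to 5 members of widest range, every member past the threshold and genes met by a small count. The number of arrays limits the precision. Whether clones were grown and extracted separately is not stated, so p-values measure the spread between these arrays.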

Additional observations from a re-analysis of the deposited data

Results flagged for a closer look

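In 84 sets of 5 values, the Low and the High values of 42 named genes, 8 had 1 line far from the other 4. Chance gives about 4.2 for unselected sets, and many of these genes were chosen for a wide range or for their correlation with Cd24a, so nothing is read from the excess. Cd24a itself was not among them: the gap below the other Low lines was 0.452 of the Low range, under the limit of 0.71. Low line 1 stood apart for 3 genes named for their likeness to Cd24a, with Klf4 at 9.54 against 10.41 to 10.49, Trib3 at 8.43 against 9.17 to 9.29, and Lyz1 at 8.51 against 7.04 to 7.34 in the other Low lines. These genes were picked by their correlation with a gene that is lowest in that line.

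High line 2 stood apart for Grb14, at 10.44 against 10.71 to 10.76 in the other High lines. High line 5 stood apart for Sytl2, at 9.84 against 9.30 to 9.38, and for Vstm2a, at 8.65 against 10.37 to 10.94. Low line 2 stood apart for Grb10, at 6.75 against 12.08 to 12.28, and for the Cd24a neighbour F930017D23Rik, at 8.42 against 8.35 to 8.36. Their cause was not tested.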

How the results depend on the processing

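The Cd24a difference between classes missed the threshold under all 18 alternatives (limma adjusted p 0.837 to 0.99998). It turned to -0.31 without Low line 1, and ran from -0.31 to 0.82 with 1 line left out. The number of genes past the threshold was 1, and 2 with arrays centred on their medians, 3 with array weights, 0 with clones blocked by the first digit of their names (676 at an unadjusted p under 0.05), and 1 to 19 with 1 line left out. It was 19 without High line 5 and 2 without Low line 3 or Low line 5. Angptl4 stayed past the threshold under every alternative except the block on first digits. In that block only clones 4D2, 4E3, 4D11 and 4H4 compare the classes, so a lost call there can come from few arrays alone. No paired analysis was possible because the labels give no replicate numbers shared by the classes. The SD of Cd24a in Low over that in High lines was 2.38, and 1.53 without Low line 1 to 4.71 without High line 4. The pooled SD ran from 0.98, without Low line 1, to 1.52.

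The 56 genes past an r of 0.8 or -0.8 became 121 with class means removed, 213 without Low lines 1 and 4 (16 shared), and 88 to 164 with 1 line left out. It was 88 without Low line 2, 90 without High line 2, 93 without High line 1, 94 without Low line 1 or Low line 5, 97 without Low line 3, 103 without High line 5, 108 without High line 3, 157 without Low line 4 and 164 without High line 4. Fewer lines let more genes pass a fixed limit by construction. With Spearman's rho 62 genes passed, 18 of them shared. With a stricter filter, brighter than the 50th percentile in 5 or more arrays, 43 of the 56 remained. Ctsw, Lyz1, Prg4 and Cfap20dc were too dim for that filter. Without Low lines 1 and 4 the r of Lss was 0.029 and that of Ebf2 0.18. The panel had 0 correlations past the threshold in every setting tried. With class means removed, the signs that turned gave r of -0.37 for Angptl4, -0.0037 for Vstm2a, -0.011 for Mest and -0.045 for Thy1. Without Low lines 1 and 4, a setting chosen for the panel after seeing the data, as were the scalings of the gene lists, r was -0.14 for Angptl4, -0.011 for Vstm2a, -0.035 for Mest, -0.17 for Cd34, -0.027 for Itgb1, -0.17 for Dlk1, -0.47 for Thy1 and -0.15 for Mki67. With 1 line left out, r ran from -0.43 to 0.15 for Pparg, -0.45 to 0.012 for Cebpb, -0.39 to 0.065 for Fabp4, -0.31 to 0.26 for Angptl4, -0.24 to 0.34 for Vstm2a, -0.18 to 0.24 for Mest, -0.40 to 0.044 for Grb10, -0.24 to 0.24 for Cd34, -0.13 to 0.32 for Dlk1, -0.40 to 0.48 for Thy1 and -0.67 to 0.44 for Mki67. The median r of the neighbours was -0.01 with 25 genes on each side. Causes were not tested.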
